A study of Homo sapiens with 4 samples.

Results

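The stanniocalcins are a family of secreted glycoprotein hormones with 2 genes in the human genome, STC1 and STC2. Both were matched by symbol among the 23228 genes listed in the count tables of ES2, a line of human ovarian cancer cells in long use, and both were among the 13546 genes that passed the filter on low counts and were tested. The cells were grown in phenol red–free medium with charcoal-treated serum and were given vehicle or liquiritigenin (Liq), a plant flavanone used in the study as an agonist of estrogen receptor beta, at 100 μM for 24 h. Each group had 2 samples, of a single unmodified line and a single dose and time. The labels do not say whether these came from separate cultures, so the spread given here may be technical. STC1 and STC2 were chosen by their counts in this same comparison of Liq with vehicle, so their levels and differences are given as a description without a test.

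Stanniocalcin was first known in fish as a hormone that lowers blood calcium. In mammals the 2 proteins act mostly near the cells that secrete them. Both are known to bind and inhibit the pappalysins, proteases that cut insulin-like growth factor (IGF) binding proteins and so release IGF. STC2 is also known as a gene induced by stress of the endoplasmic reticulum and as a restraint on store-operated calcium entry, and both genes are known to respond to hypoxia and, in breast cancer cells, to estrogen.

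The libraries held 34573053 to 48933893 reads on genes, and 3 counts, the smallest level read here as detected, corresponded to 0.060 to 0.084 CPM (counts divided by the TMM-normalized library size). Replicates differed by more than sampling noise, with a chi-square per degree of freedom of 6.33 for vehicle and 11.1 for Liq, so no library was treated as a copy of another. Of the 13 markers written down for an ovarian carcinoma line, 6 had no more than 10 counts in any library, CDH1 and EPCAM among them, while VIM, KRT7 and KRT18 were abundant, with a mean of 7479, 252 and 198 CPM in vehicle. PAX8 and WT1, transcription factor genes of this marker list, were called lower in Liq (log2 fold changes of -1.34 and -0.68), as were 2.16% of all tested genes. VIM and KRT18 passed downward (-0.28 and -0.24) and KRT7 and CDH2 upward (0.51 and 0.22). At any fold 4 of the 7 tested markers of this list were lower and 2 higher, against 11.3% and 12.6% of all tested genes. Their part in the values of the stanniocalcins was not tested. Of the 8 markers of blood, endothelial, liver and muscle cells, 6 had no more than 10 counts in any library, and CDH5 and CD68 were present at 51.8 and 71.0 CPM in vehicle. The summed level of these 8 markers was 119 to 128 CPM in vehicle and 111 to 126 CPM in Liq.

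STC2 lies on the minus strand of chromosome 5 from 172741726 to 172755450 (GRCh37, GENCODE annotation), and its canonical transcript has 4 exons and 4254 bases. The stretch upstream of STC2 is shown because STC2 belongs to the genes that hypoxia, endoplasmic reticulum stress and estrogen are known to induce. The search covered some elements of those pathways and not all. It spans chr5:172755451-172755667 on the minus strand (GRCh37), is taken from the RefSeq promoter table and was matched to GRCh37 at a single place on the chromosome. The bases nearest the RefSeq start, which lie inside the GENCODE gene, are not shown. Capitals mark the letters GCGTG and CCAAT on either strand.

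STC2 upstream: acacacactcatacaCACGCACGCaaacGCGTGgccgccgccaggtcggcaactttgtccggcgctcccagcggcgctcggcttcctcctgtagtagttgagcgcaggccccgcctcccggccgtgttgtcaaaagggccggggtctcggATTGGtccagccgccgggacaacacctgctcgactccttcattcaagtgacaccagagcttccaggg

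In the 250 bases before the RefSeq start of STC2, the hypoxia response core GCGTG occurred 3 times, with 2 of these matches sharing a base, against a share of 32.2% of 35116 RefSeq promoters of the same length with any match. The share of promoters with 3 matches was not counted, and 64.5% of the bases shown are G or C. The CCAAT box occurred once, and 32.0% of promoters had one. The letters of the other elements searched on both strands were not in this window. These were the hypoxia response core ACGTG (in 18.5% of promoters), the estrogen response element (0.0399%), made of GGTCA and TGACC spaced by 3 bases, the C/EBP-ATF composite TGATGNAA (3.14%), the AP-1 site TGANTCA (6.57%), the antioxidant response core TGACNNNGC (10.9%), the GC box GGGCGG (42.6%) and the E-box CACGTG (6.34%), which contains ACGTG. With the full estrogen response element so rare among promoters, its absence here says little, and other elements of these pathways were not searched. STC1 was not among the promoters of the table.

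Liq-treated ES2 cells held much less STC1 RNA and slightly less STC2 RNA than vehicle-treated cells. STC1 lies on chromosome 8 from 23699442 to 23712319 on the minus strand, with a canonical transcript of 4 exons and 3868 bases (GRCh37, GENCODE annotation). It was counted 5390 and 4925 times in vehicle replicates 1 and 2 and 1742 and 2453 times in Liq replicates 1 and 2. After normalization for library size its level was 131.1 and 131.6 CPM in vehicle against 49.0 and 48.9 CPM in Liq. Both Liq libraries lay far below both vehicle libraries, and the replicates of each group lay closer together than the counting error of a single library, which was 1.36% to 2.40%. The means were 131.3 ± 0.3 and 48.9 ± 0.1 CPM for vehicle and Liq (SD, n = 2), so that 37.3% of the vehicle level was left. The log2 fold change of Liq over vehicle was -1.42 (SE 0.08), which is a level 2.68-fold lower. A gene is termed called where its edgeR adjusted p-value was under 0.05 and its difference reached 1.5-fold, and passing where the p-value alone did. Of all tested genes 2.16% were called lower and 4.29% higher, that is 293 and 581 genes, which became 394 and 354 with offsets fitted by loess over expression. STC1 was among the former, from which nothing is read because it was chosen on this comparison, and 62 of the 13546 tested genes had a more negative log2 fold change.

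STC2 was counted 6869 and 6488 times in vehicle and 4786 and 6804 times in Liq. Its normalized level was 167.1 and 173.3 CPM in vehicle against 134.6 and 135.6 CPM in Liq. The groups did not overlap here either, as was the case for 30.2% of all tested genes with Liq below and 31.5% with Liq above. The means were 170.2 ± 4.4 and 135.1 ± 0.7 CPM for vehicle and Liq (SD, n = 2), with 79.4% of the vehicle level left. The log2 fold change was -0.33 (SE 0.07), a level 1.26-fold lower and under the 1.5-fold threshold of the study, and 998 tested genes had a more negative one. In bulk RNA, fewer cells with the transcript and less transcript per cell cannot be told apart for either gene.

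The 2 genes were close to each other in vehicle and far apart in Liq. The number of STC1 reads per STC2 read, which depends on no normalization between libraries, was 0.785 and 0.759 in vehicle and 0.364 and 0.361 in Liq. Its mean was 0.772 ± 0.018 in vehicle and 0.362 ± 0.002 in Liq (SD, n = 2), 2.13 times higher in vehicle. As both genes were chosen on these counts, the gap is a description without a test. Summed over both genes, stanniocalcin RNA had a mean of 301.5 CPM in vehicle and 184.0 CPM in Liq.

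Per kilobase of canonical transcript (RPKM), the order of the levels was STC2 in vehicle at 40.0, STC1 in vehicle at 33.95, STC2 in Liq at 31.8 and STC1 in Liq at 12.7. Replicate values of neighbours in this order did not overlap, which is given as a description without a test. When all annotated exons were counted as the length, STC1 stood closer to STC2 in vehicle, at 0.961 and 0.929 of its RPKM in replicates 1 and 2 in place of 0.863 and 0.835. Among the 12741 tested genes with an annotated length, STC1 ranked 2400 from the highest RPKM in vehicle and 5313 in Liq, while STC2 ranked 2012 and 2478. With either length STC2 stood above STC1 in both groups.

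**Figure D1:**
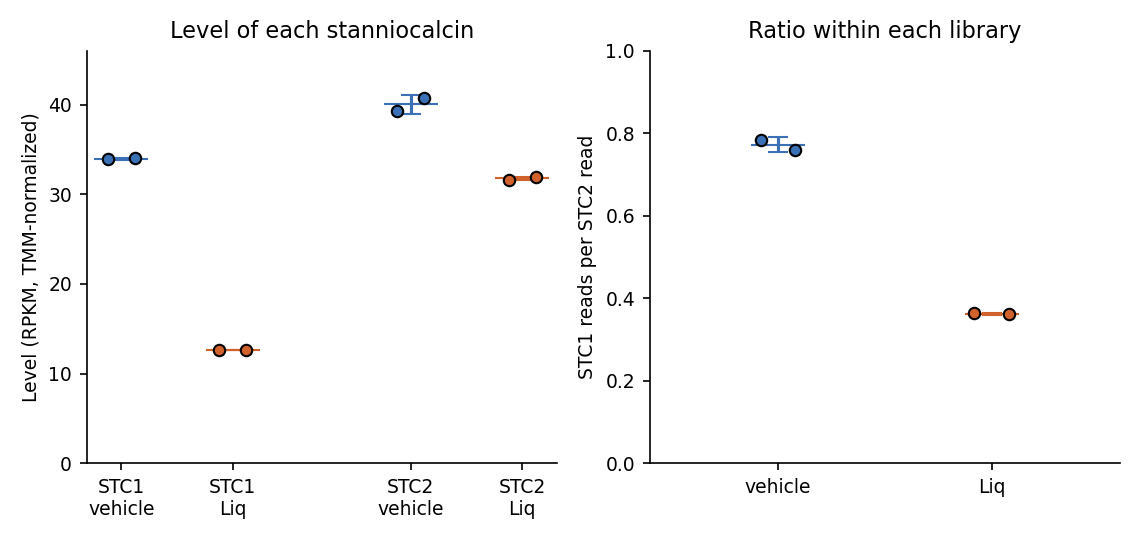
The left panel plots the level of STC1 and STC2 in RPKM on an axis from 0 and the right panel the STC1 reads per STC2 read, with 1 point for each library, a horizontal mark at the group mean and bars of ± SD (n = 2). STC1 stands at 33.95 RPKM in vehicle and 12.7 RPKM in Liq, STC2 at 40.0 and 31.8 RPKM, and the ratio falls into separate pairs of points.

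The genes whose pattern over the 4 libraries was most like that of each stanniocalcin were found among 9544 tested genes with a mean of at least 10 CPM, by the Euclidean distance between log2 CPM values centred on the vehicle mean. For STC1 they were the cytokine gene IL11 (distance 0.15), MPP4 (0.16), the epidermal growth factor family ligand EREG (0.16), LPXN, which encodes the focal adhesion protein leupaxin (0.19), and XDH, which encodes xanthine dehydrogenase (0.21). Their log2 fold changes lay between -1.49 for IL11 and -1.28 for XDH. For STC2 the distances were smaller, from 0.01 to 0.02, for the TGF-beta-induced transcription factor gene KLF10, SAAL1, the small GTPase gene RALB, IQCG and the Notch inhibitor gene NUMB. These genes were picked from the same comparison, so their likeness is a description and carries no test. The smaller distances for STC2 are not read as a closer likeness. Only 62 tested genes had a more negative log2 fold change than STC1, against 998 for STC2.

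**Figure D2:**
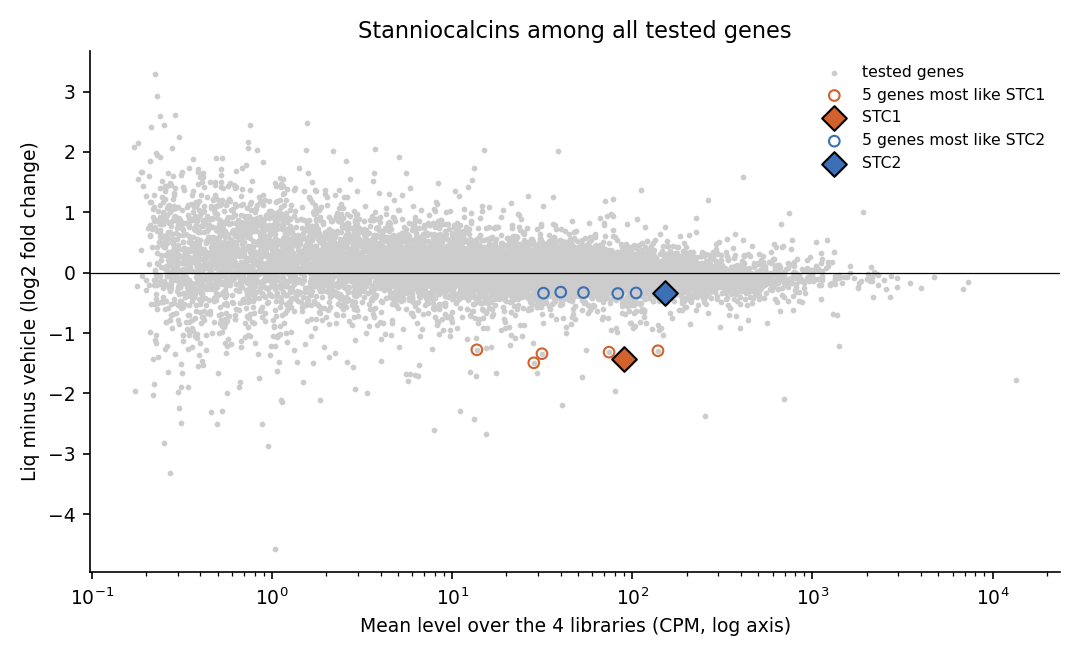
Each grey point is a tested gene, with its mean level over the 4 libraries in CPM on a log axis and its Liq minus vehicle difference in log2 units. STC1 (-1.42) lies at the lower edge of the cloud and STC2 (-0.33) within its lower part, and open circles mark the 5 genes most like each.

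Stanniocalcins act on the IGF system, and 10 of 17 genes written down for the pappalysins and the IGF axis were tested. Of these, 1 was called lower and 0 higher, against 6.45% of all tested genes called in either direction. At any fold 6 passed (60%), 2 lower and 4 higher, against 24.0% of all tested genes, 11.3% lower and 12.6% higher. The 10 genes had a median log2 fold change of 0.11, against 0.01 for all tested genes. This list and the lists below were chosen with earlier results of these data known, so their shares are a description.

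Among the proteases that stanniocalcins inhibit, PAPPA rose from 8.83 and 9.24 CPM in vehicle to 12.1 and 12.9 CPM in Liq (log2 fold change 0.47, SE 0.11, edgeR adjusted p = 0.0028). PAPPA2 stood at 12.4 CPM in each vehicle library and at 13.5 and 13.0 CPM with Liq, which did not pass (log2 fold change 0.10, SE 0.10, edgeR adjusted p = 0.54). Both Liq libraries lay above both vehicle libraries for PAPPA and PAPPA2, as for 31.5% of all tested genes. They lay below both vehicle libraries for STC1 and STC2, as for 30.2%, and the stanniocalcins were chosen on this comparison. PRG2, which encodes another inhibitor of PAPPA, had no more than 5 counts in any library.

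Among the carriers of IGF, IGFBP1 was counted 230 and 192 times in vehicle and 49 and 66 times in Liq, and fell by 2.00 log2 units (SE 0.18, edgeR adjusted p = 2.71e-09). IGFBP3 fell by 0.55 (SE 0.08, edgeR adjusted p = 1.47e-05), from 69.6 ± 0.7 to 47.7 ± 2.4 CPM (SD, n = 2). IGFBP4, the best known substrate of PAPPA, had a vehicle mean of 5.83 ± 0.35 and a Liq mean of 6.28 ± 0.02 CPM (SD, n = 2). The difference of 0.11 log2 units (SE 0.13, edgeR adjusted p = 0.59) did not pass and was -0.01 with offsets fitted by loess over expression. IGFBP5, the substrate that PAPPA and PAPPA2 share, and the ligand genes IGF1 and IGF2 had 0 counts in every library, which allows a level of up to 0.060 to 0.084 CPM by counting error alone.

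On the receiving side, the receptor gene IGF1R rose by 0.28 log2 units (SE 0.08, edgeR adjusted p = 0.016). The adaptor genes IRS1 and IRS2 rose by 0.27 and 0.38 (edgeR adjusted p = 0.0049 for each). Without vehicle replicate 1 none of PAPPA, IGF1R, IRS1 and IRS2 passed the test, at 0.43, 0.27, 0.28 and 0.36, and without vehicle replicate 2 the last 3 did not, at 0.29, 0.26 and 0.40. In these fits the lone vehicle library was assumed to vary like the others. Without Liq replicate 1 the number of called genes in this list was 2.

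Of 18 genes of phosphate and calcium homeostasis, the field in which stanniocalcins were discovered, 7 were tested and 11 were too low. Of the 7, 1 was called lower and 0 higher (14.3%, against 6.45% of all tested genes). At any fold 4 fell and 1 rose, against 11.3% and 12.6% of all tested genes, and the median log2 fold change was -0.38. With the DESeq2 Wald test 3 of the 7 passed, a count without a background, since the share of all tested genes passing that test is not given here. The phosphate importer gene SLC20A1 fell from 285.7 and 281.7 CPM to 208.6 and 214.3 CPM (log2 fold change -0.42, SE 0.07, edgeR adjusted p = 3.94e-05). Its paralogue SLC20A2 differed by -0.25 log2 units (SE 0.09, edgeR adjusted p = 0.040), and it no longer passed with the DESeq2 Wald test (-0.25), with upper-quartile factors (-0.22), without either vehicle replicate (-0.18 and -0.31) and without Liq replicate 1 (-0.22).

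The vitamin D receptor gene VDR fell from 11.7 ± 0.6 to 8.95 ± 0.03 CPM (SD, n = 2), a log2 difference of -0.39 (edgeR adjusted p = 0.012), and did not pass without vehicle replicate 1 (-0.34). PTHLH, which encodes parathyroid hormone-related protein, was counted 112 and 86 times in vehicle and 47 and 83 times in Liq. It was the only called gene of this list (log2 fold change -0.74, SE 0.21, edgeR adjusted p = 0.0097), and the call was lost with DESeq2 (-0.75) and without vehicle replicate 1 (-0.61). The phosphate exporter gene XPR1 rose by 0.26 (SE 0.08, edgeR adjusted p = 0.018), which did not pass without vehicle replicate 1 (0.24), vehicle replicate 2 (0.28) or Liq replicate 2 (0.18). The calcium-sensing receptor gene CASR had no more than 1 count in any library.

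Store-operated calcium entry refills the endoplasmic reticulum through the sensor STIM1 and the channel ORAI1, and 12 of its 13 listed genes were tested. With edgeR 0 of them passed, against 24.0% of all tested genes, and 2 had an unadjusted p-value under 0.05, against 36.1%. With the DESeq2 Wald test 0 passed, and the share of all tested genes passing that test is not given here. STIM1 had a vehicle mean of 37.5 ± 1.7 and a Liq mean of 39.5 ± 1.9 CPM, and ORAI1 means of 21.7 ± 1.8 and 19.96 ± 1.35 CPM (SD, n = 2). Their groups overlapped.

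**Figure D3:**
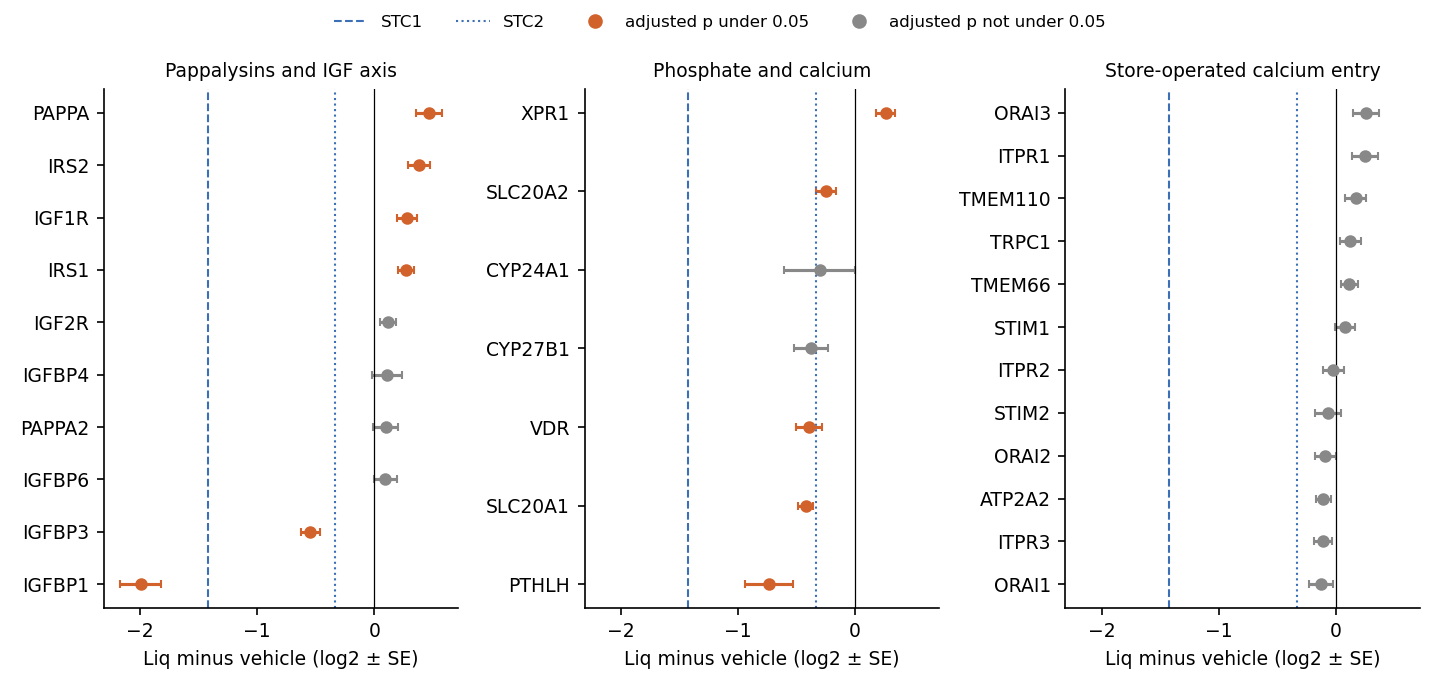
Points give the Liq minus vehicle difference of each tested gene in 3 lists, in log2 units with bars of ± SE from edgeR, and the dashed and dotted lines mark STC1 (-1.42) and STC2 (-0.33). IGFBP1 is the single gene of these lists to the left of STC1, and no gene of store-operated calcium entry is coloured as having an adjusted p-value under 0.05.

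Genes of pathways known to induce stanniocalcins were examined next. Of 20 hypoxia response genes 18 were tested, 1 was called lower and 2 higher (16.7%, against 6.45% of all tested genes). At any fold 1 fell and 5 rose (33.3%, against 24.0%), and the median log2 fold change was 0.05. The transcription factor gene BHLHE40 fell by 1.08 (SE 0.10, edgeR adjusted p = 3.11e-09). EPAS1, which encodes HIF-2alpha, rose by 0.59 (SE 0.09, edgeR adjusted p = 4.34e-05). It passed in every alternative but lay just under 1.5-fold with loess offsets (0.57), without vehicle replicate 2 (0.58) and without Liq replicate 1 (0.56). LOX, which encodes lysyl oxidase, rose by 0.42 (edgeR adjusted p = 9.86e-06). The carbonic anhydrase gene CA9 rose from 9 and 7 counts to 23 and 30 (log2 fold change 1.59, SE 0.42, edgeR adjusted p = 0.0066), and did not pass without vehicle replicate 1 (1.71) or 2 (1.49). Without vehicle replicate 2 the number of called genes in the hypoxia list was 1. CA9 had under 10 counts in each vehicle library, too shallow for the size of its rise to be read closely. It was not assessed with at least 10 counts required in every sample or with DESeq2. In each of these 1 gene of the list was called higher. Another carbonic anhydrase gene, CA12, rose by 0.50, and HIF1A by 0.20 (edgeR adjusted p = 0.0014 and 0.019). HIF1A did not pass without vehicle replicate 1 (0.19), vehicle replicate 2 (0.21) or Liq replicate 2 (0.17). VEGFA, named here after its values were seen as a familiar target, had a log2 fold change of -0.20 and did not pass (edgeR adjusted p = 0.080).

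All 20 genes of the ATF4 and unfolded protein response list were tested, and 3 were called higher and 0 lower (15%, against 6.45% of all tested genes). At any fold 5 rose and 0 fell, a share of 25% that is near the 24.0% of all tested genes, and the median log2 fold change was 0.17. SLC7A11, the cystine importer gene, rose by 1.36, NUPR1 by 0.82, DDIT4 by 0.63, the chaperone gene HSPA5 by 0.53 and HERPUD1 by 0.30 (edgeR adjusted p between 2.99e-12 and 0.0057). DDIT4 passed in every alternative but lay under 1.5-fold without vehicle replicate 2 (0.52) and without Liq replicate 1 (0.58), which left 2 called genes in each case. HERPUD1 did not pass without vehicle replicate 1 (0.30) or 2 (0.29). ATF4 itself, the factor known to act on STC2, was at 304.1 and 305.8 CPM in vehicle and 303.7 and 296.3 CPM in Liq (log2 fold change -0.02, SE 0.07, edgeR adjusted p = 0.83). These are RNA levels, and the activity of the ATF4 and HIF1A proteins was not measured.

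The estrogen receptors themselves were barely detected. ESR2, which encodes estrogen receptor beta, had 4 and 7 counts in vehicle and 5 and 14 in Liq and was too low to be tested. ESR1 had 22, 17, 19 and 34 counts in vehicle replicates 1 and 2 and Liq replicates 1 and 2 (log2 fold change 0.31, SE 0.34, edgeR adjusted p = 0.55). Of 16 genes listed for the receptors and their classical targets 11 were tested. With edgeR 0 of the 11 were called, against 6.45% of all tested genes, and with so few genes this is near the background. The DESeq2 Wald test also called 0 of them, against 567 genes in the whole table. At any fold 3 rose (27.3%, against 24.0% of all tested genes), and 4 of the 11 had an unadjusted p-value under 0.05, against 36.1% of all tested genes, so both shares were near the background. The median log2 fold change was 0.18. The progesterone receptor gene PGR rose by 0.49 (SE 0.13, edgeR adjusted p = 0.0069), CA12 by 0.50 and the cathepsin D gene CTSD by 0.28 (edgeR adjusted p = 0.011). A part of estrogen receptors in the values of the stanniocalcins was not tested. Without vehicle replicate 2 neither PGR (0.45) nor CTSD (0.18) passed.

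Position was not used to choose the stanniocalcins, and each lies next to a gene of the NKX2 homeobox family. NKX2-6 is 135 kb from STC1 and differed by -0.0045 log2 units (SE 0.14, edgeR adjusted p = 0.98), a direction that turned in some alternatives, to 0.02 with upper-quartile factors and 0.19 without vehicle replicate 1, and NKX2-5 is 79.4 kb from STC2 and had no more than 1 count in any library. Of the 5 listed protein-coding genes nearest on each side of each stanniocalcin, 13 of 20 were tested and 1 was called, against 6.45% of all tested genes. At any fold 2 fell and 2 rose, against 24.0% of all tested genes in either direction. The called gene was ADAM28, the nearest gene on the other side of STC1 at 439 kb, which encodes a membrane-anchored metalloprotease. It was counted 52 and 37 times in vehicle and 112 and 125 times in Liq and rose by 1.30 (SE 0.22, edgeR adjusted p = 7.90e-05), opposite to STC1. The other neighbours that passed, named after their values were seen, were LOXL2 beside STC1 (0.29) and BNIP1 (-0.42) and CPEB4 (-0.34) beside STC2. The nearest gene on the other side of STC2, BOD1, had a vehicle mean of 66.4 ± 0.2 and a Liq mean of 65.1 ± 4.4 CPM (SD, n = 2). The log2 difference of -0.03 did not pass (edgeR adjusted p = 0.84) and was 0.0018 with loess offsets and 0.04 without Liq replicate 1.

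**Figure D4:**
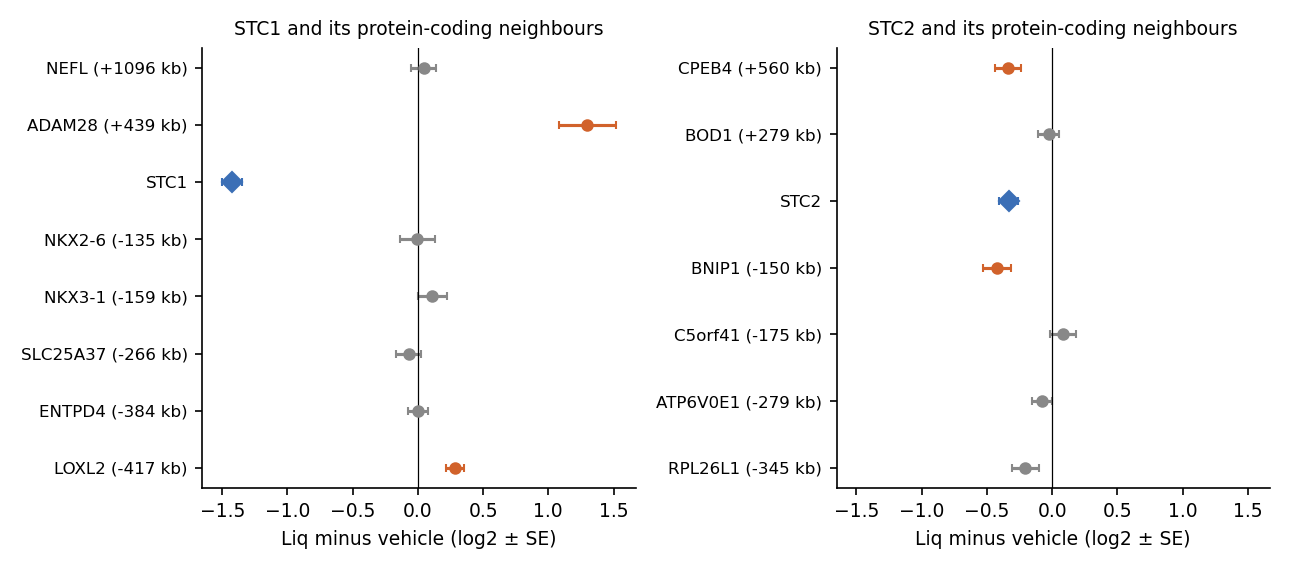
Points give the Liq minus vehicle difference in log2 units with bars of ± SE for each stanniocalcin (diamond) and its tested protein-coding neighbours in chromosomal order, with the distance in kb beside each name. STC1 (-1.42) stands alone on the left, ADAM28 (1.30) on the right, and the neighbours of STC2 lie near 0 or near STC2 itself.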

How the data were processed

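RNA from ES2 cells given vehicle or 100 μM Liq for 24 h was sequenced, with 2 samples per group. The dose is stated in the methods of the study. Per the labels, the authors aligned reads to hg19 with TopHat2 2.0.8b and used HTSeq to count them on genes. The deposited values are raw counts, whole numbers without normalization. The annotation version and strand setting are not given in the sources used here. The 5 closing tally lines were left out of the tests. The tally for alignments to more than 1 place, left uncounted on genes, held 35.6% to 36.2% of the summed gene and tally counts. This need not equal the share of reads.

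Counts were analysed with edgeR 4.0.16 in R 4.3.3. filterByExpr (minimum count 10, minimum total 15) left 13546 genes, which were normalized by TMM and tested with glmQLFit and glmQLFTest, no block being used. P-values were Benjamini-Hochberg adjusted over all tested genes. The SE is the log2 fold change divided by the square root of F. With 2 against 2 samples, the smallest p that exact permutation of the samples can give for a gene is 0.3333.

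The stanniocalcins and all gene lists were chosen with earlier results of these data known. Named are the stanniocalcins, 9 further genes fixed by name, the most significant passing genes of each list (at most 6), called or nearest neighbours, and the 5 genes most like each stanniocalcin. Genes named as examples of low counts or of markers were chosen after their values were seen, and so was ATF4. Neighbours and lengths come from GENCODE v44 lifted to GRCh37, and 94.1% of tested genes had a length. Fits were tested on simulated data with a single dispersion shared by all genes and changes placed only in well-counted genes. Changes in genes with low counts were not covered. Alternatives were the normalization, the filter, DESeq2 1.42.0, the block, the call rule and leaving out each sample.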

Additional observations from a re-analysis of the deposited data

How the results depend on the processing

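STC1 and STC2 were lower in Liq under every alternative run. The log2 fold change of STC1 was -1.43 with DESeq2 size factors, without the filter on low counts and with the DESeq2 Wald test, -1.40 with upper-quartile factors and -1.39 with offsets fitted by loess over expression. These shifts were larger than the very small spread between its replicates but smaller than its SE of 0.08. The log2 fold change of STC2 was -0.27 with the loess offsets. Leaving out each sample gave -1.43 to -1.42 for STC1 and -0.36 to -0.31 for STC2. The number of genes changed in the whole table was 874, of which 293 were lower and 581 higher. It was 567 with DESeq2 (226 lower and 341 higher) and 3245 without a fold threshold, and it ranged from 659 to 979 when a sample was left out. The loess offsets gave 394 lower and 354 higher. Without a fold threshold the numbers were 6 for the pappalysins and IGF axis, 5 for phosphate and calcium homeostasis, 6 for hypoxia, 5 for the ATF4 list, 3 for the estrogen list and 4 for the neighbours. The phosphate and calcium list gave 2 without the filter on low counts and 0 with DESeq2. Leaving out each sample gave 1 to 2 for the pappalysins and IGF axis, 0 to 1 for phosphate and calcium, 1 to 3 for hypoxia and 2 to 3 for the ATF4 list. EPAS1, DDIT4, HSPA5 and IGFBP3 lay near 1.5-fold and crossed it in some alternatives, HSPA5 with loess offsets (0.63) and IGFBP3 without Liq replicate 1 (-0.60). The cause of these shifts was not tested.

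The replicate number as a block gave 898 changed genes. The numbers are shared labels only, with a correlation of 0.0483 between the deviations of same-numbered samples, and the block gave -1.42 for STC1 and -0.33 for STC2. Of 42 named genes refitted, 21 kept their direction and their side of the adjusted p-value threshold in every alternative, whatever their side of 1.5-fold, and 3 reversed in any, each near 0. IGFBP4 turned to -0.0082 with loess offsets. NKX2-6 turned to 0.023 with upper-quartile factors, 0.012 with the block, and its values without single samples ranged from -0.17 to 0.19. BOD1 turned to 0.0018 with loess offsets and ranged from -0.10 to 0.038 without single samples. Genes under about 10 counts per library, such as ESR2, are too shallow here for a difference to be read.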
